A study of Mus musculus with 6 samples.

Results

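The 42 genes described here mark macrophages and other myeloid cells. They were taken as a fixed list of symbols out of 56923 gene identifiers in the count tables, and all 42 symbols matched an identifier. They were split into 9 subgroups by role: 5 pan-leukocyte genes, 14 pan-myeloid genes, 4 Fc receptor genes, 2 inhibitory receptor genes, 4 phagocyte oxidase genes, 3 scavenger receptor genes, 4 C-type lectin genes, 2 genes of lipid-associated macrophages and 4 genes of resident-type macrophages. The choice did not use measured values of the 6 libraries, but it was made with earlier results of these data known.

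RNA was sequenced from whole snap-frozen kidneys of 6 male mice. The 3 control mice carried floxed Pkd1 alleles and the Tet-O-Cre transgene (Pkd1flox/flox.Tet-O-Cre), and the 3 mice of the Pkd1 KO group carried in addition Pax8rtTA (Pkd1flox/flox.Pax8rtTA.Tet-O-Cre), a doxycycline-dependent activator driven by the Pax8 promoter, which is active in renal tubule cells. Mice of both groups drank doxycycline at 2 mg/ml in 5% sucrose for 14 days, from postnatal day 28 to day 42, and kidneys were analysed at 10 weeks. The Cre system is therefore aimed at the tubule and not at macrophages, controls had no activator, and no group without doxycycline or without floxed alleles was part of the comparison. The comparison asks which myeloid genes differ in the kidney after tubular deletion of Pkd1, a gene whose loss causes polycystic kidney disease.

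Macrophages enter a tissue before birth or arise there from blood monocytes, and the transcription factor PU.1, encoded by Spi1, is required to form them. Their surface carries receptors that bind antibody (Fc receptors), microbial sugars (C-type lectins), and modified lipoproteins or cell debris (scavenger receptors). Many of these receptors signal through the small adaptors encoded by Tyrobp and Fcer1g, and engulfed material meets the superoxide made by the phagocyte oxidase. Macrophages surround cysts in polycystic kidneys of patients and mice.

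Gene counts per library ran from 45020173 to 62983791, and the first principal component of log2 CPM (counts scaled to a fixed library size), with 70.4% of the variance, separated the groups. The names of the deposited counts carry 2 project numbers, and control and Pkd1 KO libraries share neither. These were read as separate sequencing projects, which the sample titles do not name. Every difference described here is therefore one of genotype and project together, which cannot be told apart. Pkd1 itself had 30.01, 46.4 and 23.6 CPM in controls against 8.77, 9.003 and 10.01 CPM after deletion (log2 fold change −1.85 ± 0.24 SE, adjusted p = 0.00234, and −0.53 in a fit with offsets described below). The count covers the whole gene and includes cells in which Pax8 is not active. Tubule markers moved with the groups too. Summed CPM of 6 proximal tubule markers was 5369 to 11238 in controls and 3617 to 4136 in Pkd1 KO kidneys (4 called lower and 1 higher, the latter not without control 1, control 3, KO 1 or KO 2). Of 4 thick ascending limb markers 2 were lower, and of 5 tested collecting duct markers 5 were lower (3 without control 1, KO 1 or KO 2). The part of these decreases in the myeloid values was not tested. Beyond separate kidneys the labels say nothing of litters or cages, and p-values measure the spread between these samples only. In RNA of a whole organ, more cells of a type and more RNA per cell cannot be told apart.

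Most of the myeloid genes were higher in Pkd1 KO kidneys. Of 41 genes that passed the filter on low counts, 30 rose, 0 fell and 11 were not called in edgeR's quasi-likelihood test at an adjusted p of 0.05. Among all 18273 genes tested, 22.7% were called higher and 24.2% lower. At an unadjusted p under 0.05, 31 of the 41 were higher and 1, Laptm5, was lower. DESeq2 also called 30 of them higher and 0 lower, and it called 19.1% of all its genes higher. The median log2 fold change (Pkd1 KO minus control) of the 41 genes was 1.32, with values from −0.45 to 3.29, beside a median of 0.03 over all genes tested. A rise of at least 2-fold was called for 23 of them, and for 11.6% of all genes. In 29 of them every Pkd1 KO kidney lay above every control kidney, a pattern seen in 31.2% of all genes, and in 1, Laptm5, every Pkd1 KO kidney lay below, as in 30.0% of all genes. Clec4n, Trem2, Gpnmb and Lyve1 had fewer than 10 reads in at least 1 control. The filter asks for a minimum level in as many libraries as a group holds, taken from either group. For these genes the controls alone did not meet it. The gene that was not tested is Timd4, an apoptotic cell receptor of resident macrophages, with 0 to 3 reads in controls and 3 to 14 in Pkd1 KO kidneys.

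**Figure D1:**
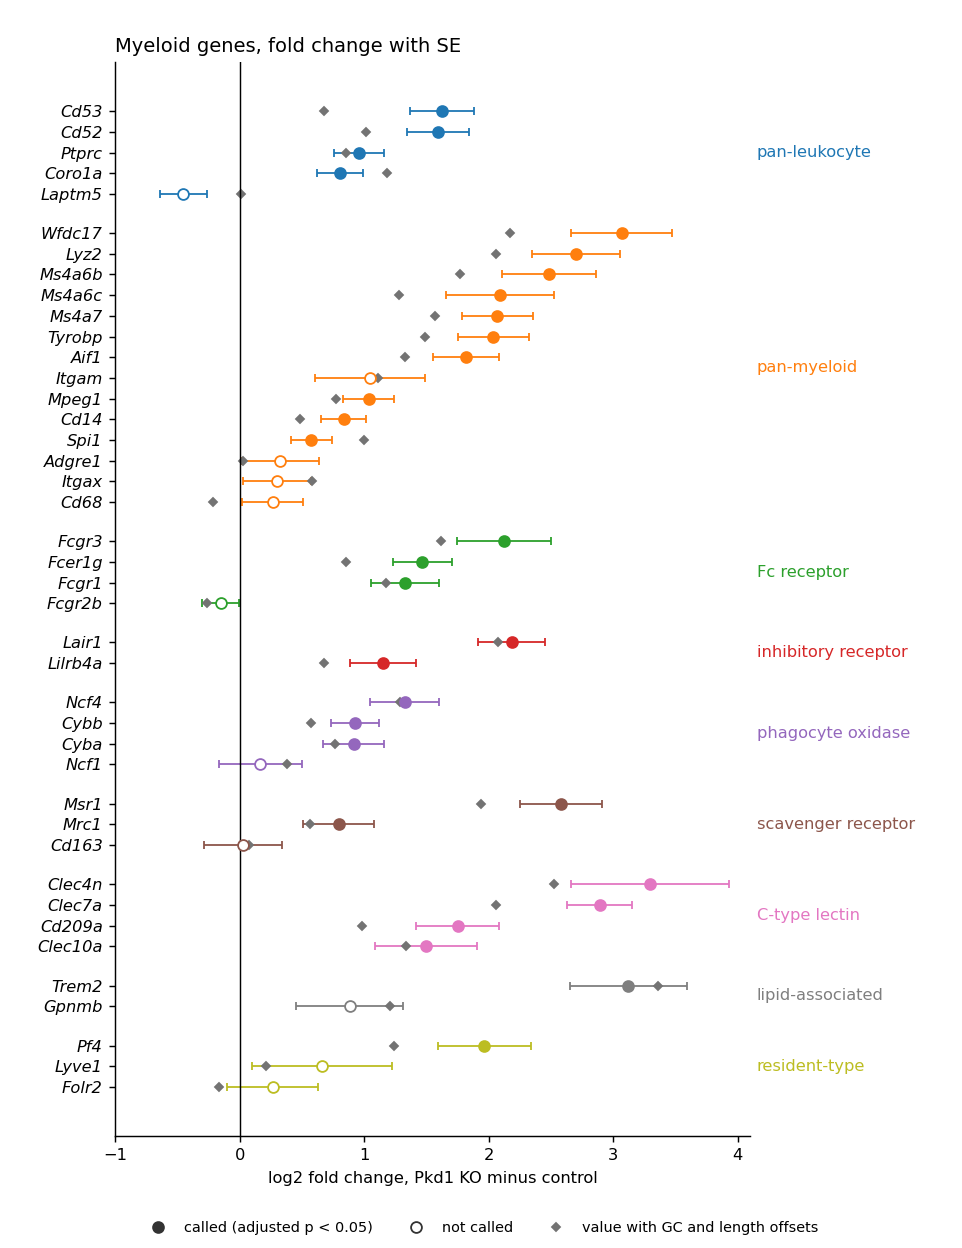
Log2 fold change (x axis, Pkd1 KO minus control) of the 41 tested myeloid genes, grouped by role and ordered by size within a role. Circles with bars are the value ± SE from edgeR (3 kidneys each), filled where the adjusted p was under 0.05, and grey diamonds are the value with offsets for GC content and length. All filled circles lie to the right of 0, from 0.57 for Spi1 to 3.29 for Clec4n.

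Since fold changes can follow the GC content and length of genes, each value was also computed with offsets that remove such a trend. The 41 genes had a median exonic length of 2783 bases and a median GC content of 48.9%, against 3787 bases and 49.4% for all tested genes. With offsets 29 of the 41 were called higher and 0 lower, where 15.0% of all genes were higher and 19.5% lower, and the median log2 fold change was 1.02. The value moved nearer to 0 for 32 of the 41 genes, and 28 were called higher in both fits. The calls of Mrc1 (0.56, adjusted p = 0.1196) and Lilrb4a (0.67, adjusted p = 0.0588) ended with the offsets, and Gpnmb was called (1.21, adjusted p = 0.0486). Below, "offset value" means the log2 fold change of this second fit, log2 fold changes carry their SE (3 kidneys each), and adjusted p-values are from edgeR's quasi-likelihood test over all genes. Under upper-quartile scaling in place of TMM, the median over all genes was 0.19 and not 0.03, and 30 members were called higher. Of all genes 5274 were then called higher, against 4148 with TMM.

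PU.1 recognises purine-rich ETS sites. The letters GAGGAA, a single form of such a site and called the core below, were therefore searched. The search covered both strands of the 250 bases before the transcription start of each gene. The RefSeq promoter table (build GRCm38.p6) held 37 such windows for 31 of the 42 genes. GAGGAA or its reverse complement TTCCTC stood in 16 of the 37 windows (43.2%) and in 23.3% of all 32851 windows of the same length. By gene these were 14 of 31, made up of 11 of the 21 called higher and 3 of the 10 others. The longer GAGGAAGT, which contains the core, stood in 1 of the 37 windows (2.70%) and in 2.44% of all. The AP-1 letters TGANTCA were found in 16.2% of the members' windows and 6.75% of all, and the C/EBP letters TTGCNNAA in 13.5% and 9.56%. Both were searched on both strands, and neither contains the core. Windows of 1 gene can overlap each other, and a match is a description of letters, not of binding. To show where the core sits, 4 genes that rose and have a match are printed first. The strongly expressed Lyz2, which rose, and Fcgr2b, which was not called, follow, and both have no match to GAGGAA. Shorter or variant ETS sites were not searched, so a window without a match can still hold one. Capitals mark the core on either strand, each sequence runs 5′ to 3′ on the strand of its gene, and its last base precedes the transcription start.
Clec7a (chr6:129472786-129473035, minus strand, core beginning 90 bases before the start): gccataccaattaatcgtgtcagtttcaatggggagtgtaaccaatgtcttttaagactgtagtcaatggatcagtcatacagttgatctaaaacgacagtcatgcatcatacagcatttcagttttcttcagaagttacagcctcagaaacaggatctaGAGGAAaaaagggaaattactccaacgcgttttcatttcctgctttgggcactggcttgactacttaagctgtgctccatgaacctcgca
Trem2 (chr17:48346151-48346400, plus strand, core beginning 40 bases before the start): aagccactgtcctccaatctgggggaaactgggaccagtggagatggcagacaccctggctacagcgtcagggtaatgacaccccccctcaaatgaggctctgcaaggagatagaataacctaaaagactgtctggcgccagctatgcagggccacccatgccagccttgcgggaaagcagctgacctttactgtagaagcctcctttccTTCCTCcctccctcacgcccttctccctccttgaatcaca
Lair1 (chr7:4063205-4063454, minus strand, core beginning 26 bases before the start): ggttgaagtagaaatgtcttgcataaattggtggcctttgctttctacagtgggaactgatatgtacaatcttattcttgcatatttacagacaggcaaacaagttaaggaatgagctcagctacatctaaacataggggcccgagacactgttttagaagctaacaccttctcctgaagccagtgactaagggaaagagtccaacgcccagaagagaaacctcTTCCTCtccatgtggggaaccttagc
Fcgr3 (chr1:171059404-171059653, minus strand, core beginning 6 bases before the start): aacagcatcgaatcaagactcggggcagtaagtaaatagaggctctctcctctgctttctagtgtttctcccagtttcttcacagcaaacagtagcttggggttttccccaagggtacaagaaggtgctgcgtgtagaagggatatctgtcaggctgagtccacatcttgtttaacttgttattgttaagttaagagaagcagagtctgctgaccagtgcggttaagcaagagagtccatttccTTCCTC
Lyz2 (chr10:117282273-117282522, minus strand, no match): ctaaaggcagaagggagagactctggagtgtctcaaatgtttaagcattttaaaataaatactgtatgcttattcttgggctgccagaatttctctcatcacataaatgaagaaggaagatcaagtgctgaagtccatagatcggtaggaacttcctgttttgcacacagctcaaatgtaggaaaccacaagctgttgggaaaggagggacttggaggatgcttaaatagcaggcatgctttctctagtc
Fcgr2b (chr1:170976072-170976321, minus strand, no match): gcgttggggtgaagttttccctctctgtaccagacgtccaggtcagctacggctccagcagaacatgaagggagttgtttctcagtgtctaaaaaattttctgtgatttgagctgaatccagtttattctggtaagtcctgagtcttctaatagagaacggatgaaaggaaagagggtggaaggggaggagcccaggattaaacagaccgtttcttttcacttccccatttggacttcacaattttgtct

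Pan-leukocyte genes, which all white blood cells use, rose in 4 of 5 cases. Their median log2 fold change was 0.96. Ptprc (ENSMUSG00000026395) encodes CD45, the membrane phosphatase that defines leukocytes. It stood at 14.5, 10.7 and 13.4 CPM in controls and at 19.02, 29.9 and 25.996 CPM in Pkd1 KO kidneys, so that the groups were apart and the lowest Pkd1 KO value came from kidney 1. The log2 fold change of Ptprc was 0.96 ± 0.20 (adjusted p = 0.00595, offset value 0.85). Cd53 (ENSMUSG00000040747), a tetraspanin of leukocytes, had 3.87, 2.37 and 3.97 CPM against 7.88, 12.9 and 10.6 CPM. It rose by 1.62 ± 0.26 on the log2 scale (adjusted p = 0.002803, offset value 0.68). Cd52 (ENSMUSG00000000682) encodes a small glycoprotein anchored in the membrane of lymphocytes and monocytes. Its values were 4.7002, 3.03 and 4.38 CPM in controls and 9.36, 15.8 and 11.3 CPM in Pkd1 KO kidneys (log2 fold change 1.59 ± 0.25, adjusted p = 0.00278, offset value 1.02), again without overlap. Coro1a, an actin regulator of leukocytes, rose by 0.81 ± 0.18 (adjusted p = 0.00818, offset value 1.18).

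Laptm5 (ENSMUSG00000028581), a lysosomal membrane protein of leukocytes, was not called. Controls gave 12.99, 9.62 and 9.27 CPM of it and Pkd1 KO kidneys 6.77, 7.87 and 8.602 CPM, so every Pkd1 KO kidney lay below every control. The log2 fold change was −0.45 ± 0.19 (adjusted p = 0.0733). It was called lower without control 2 (−0.56, adjusted p = 0.0350) and without control 3 (−0.59, adjusted p = 0.0246), and its offset value was 0.0049 (adjusted p = 0.986), the upper end of a range that begins at 0.0246.

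Pan-myeloid genes rose in 10 of 14 cases. The median log2 fold change was 1.43. Lyz2 (ENSMUSG00000069516) encodes lysozyme M, a bacteriolytic enzyme that macrophages secrete in bulk. It had 26.4, 12.7 and 30.2 CPM in controls and 97.5, 189 and 165 CPM in Pkd1 KO kidneys. The lowest Pkd1 KO kidney was still well above the highest control, the means were 23.1 ± 9.23 and 150.3 ± 47.2 CPM (SD), a 6.504-fold ratio, and the log2 fold change was 2.70 ± 0.35 (adjusted p = 0.00234, offset value 2.06). Per exonic kilobase, the scale on which genes can be compared, Lyz2 was the most abundant member after Cyba, at 17.6 CPM per kb against 114 in Pkd1 KO kidneys. Wfdc17 (ENSMUSG00000069792), a small secreted protein induced in activated macrophages, stood at 0.622, 0.657 and 1.37 CPM against 4.41, 10.2 and 7.29 CPM. Its log2 fold change of 3.07 ± 0.40 (adjusted p = 0.00234, offset value 2.17) was the largest of the subgroup. Ms4a6b (ENSMUSG00000024677), a 4-span membrane protein, had 2.54, 1.04 and 2.13 CPM in controls and 6.71, 14.6 and 10.6 CPM in Pkd1 KO kidneys (log2 fold change 2.49 ± 0.38, adjusted p = 0.00267, offset value 1.77). The related Ms4a6c (2.09 ± 0.43, offset value 1.27) and Ms4a7 (2.07 ± 0.29, offset value 1.57) also rose. Ms4a6b and Ms4a6c are close copies of each other, and Lyz2 of Lyz1, and STAR's gene counts leave out reads that map to more than 1 place, so these values are uncertain.

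Tyrobp (ENSMUSG00000030579), the adaptor also called DAP12 through which TREM2 and other receptors signal, had 5.01, 3.13 and 6.15 CPM in controls and 13.97, 24.7 and 19.8 CPM in Pkd1 KO kidneys. The groups did not overlap (2.04 ± 0.29, adjusted p = 0.00258, offset value 1.49). Aif1, the calcium-binding protein IBA1 that is widely stained to show macrophages, rose by 1.82 ± 0.27 (adjusted p = 0.00259, offset value 1.32). Mpeg1, the pore-forming perforin-2, rose by 1.03 ± 0.21 (adjusted p = 0.00486, offset value 0.77), and Cd14, a co-receptor for lipopolysaccharide, by 0.83 ± 0.18 (adjusted p = 0.006199, offset value 0.49). Spi1 itself rose by 0.57 ± 0.17 (adjusted p = 0.0207, offset value 0.99), the smallest called change among the 41. Its call ended without control 1 (adjusted p = 0.0674), KO 1 (0.0560), KO 2 (0.0819) or KO 3 (0.0628), within a range of 0.00354 to 0.0819 over its alternatives.

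The 4 uncalled pan-myeloid genes include antigens widely used to identify macrophages by staining. Adgre1 (ENSMUSG00000004730), which encodes F4/80, had 8.64, 3.56 and 5.61 CPM in controls and 5.903, 9.003 and 7.39 CPM in Pkd1 KO kidneys. The groups overlapped, with control 1 near the top of all 6 values, and the log2 fold change was 0.33 ± 0.31 (adjusted p = 0.407, offset value 0.02). Cd68 (ENSMUSG00000018774), a lysosomal glycoprotein, had 3.63, 2.58 and 2.33 CPM against 3.05, 4.198 and 2.999 CPM. It too overlapped (0.26 ± 0.24, adjusted p = 0.398), and its offset value was −0.22. The integrin subunits Itgam (CD11b, 1.05 ± 0.44, adjusted p = 0.0786) and Itgax (CD11c, 0.30 ± 0.27, adjusted p = 0.392) were not called. Itgam was low, with 19 to 38 reads in controls and 41 to 105 in Pkd1 KO kidneys. It was called higher without control 3 (1.38, adjusted p = 0.0279), without KO 3 (1.34, adjusted p = 0.0434) and without a filter on low counts (1.05, adjusted p = 0.0305), where its alternatives ranged up to an adjusted p of 0.309.

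**Figure D2:**
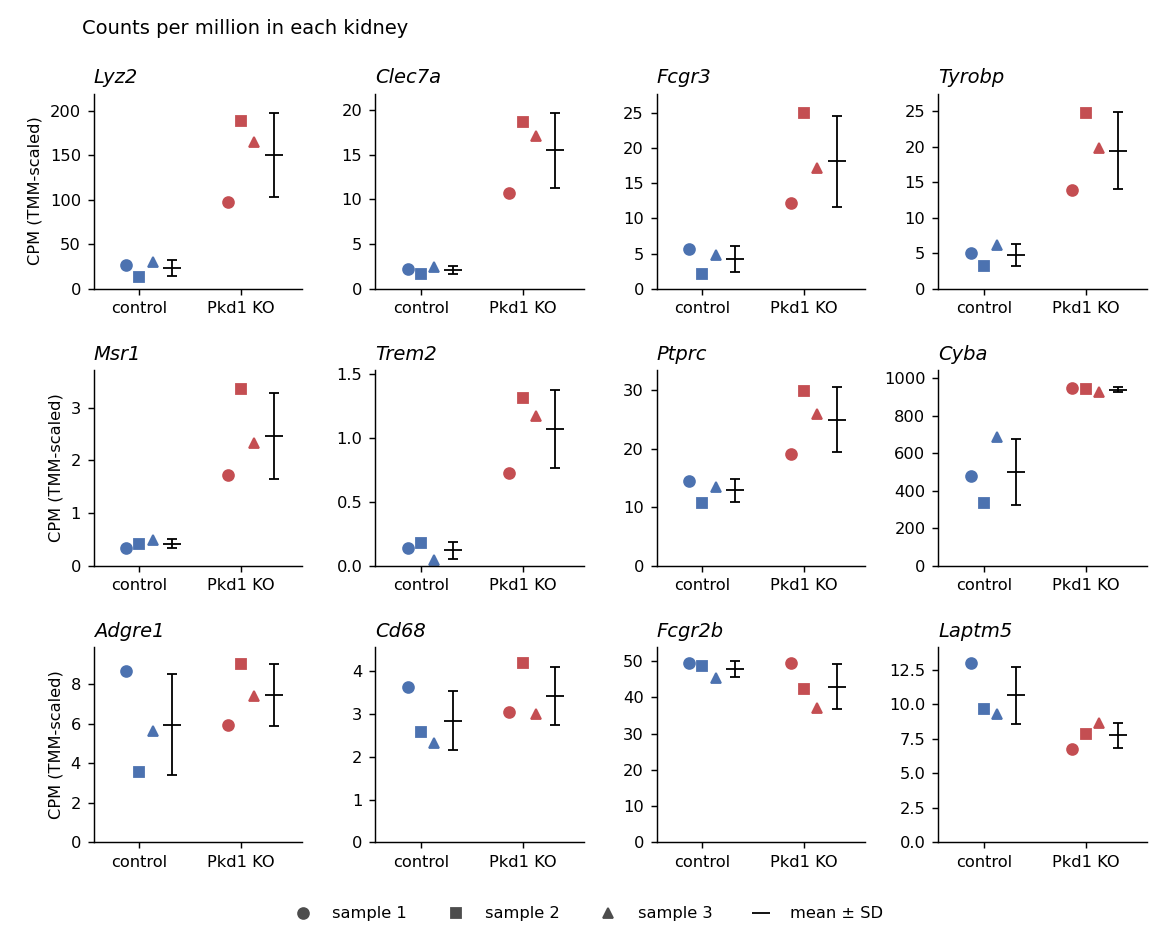
CPM (y axis, linear from 0, scaled by TMM) of 12 myeloid genes in each of the 3 control and 3 Pkd1 KO kidneys. Symbols are single kidneys and the black bar with whiskers is the mean ± SD. The upper 8 genes have all Pkd1 KO kidneys above all controls, Adgre1, Cd68 and Fcgr2b overlap, and Laptm5 has all Pkd1 KO kidneys below.

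Among Fc receptor genes, the 2 receptors that activate cells and their common chain rose, and the inhibitory receptor was not called. Their median log2 fold change was 1.40, with 3 of 4 called higher. Fcgr3 (ENSMUSG00000059498), the low-affinity activating receptor for immunoglobulin G complexes, had 5.67, 2.11 and 4.76 CPM in controls and 12.3, 25.1 and 17.2 CPM in Pkd1 KO kidneys. All Pkd1 KO values were above all control values (2.12 ± 0.38, adjusted p = 0.00359, offset value 1.61). Fcer1g (ENSMUSG00000058715) encodes the signalling chain that activating Fc receptors need. It stood at 5.09, 3.15 and 4.67 CPM against 9.72, 14.6 and 11.2 CPM (1.47 ± 0.24, adjusted p = 0.002803, offset value 0.85). Fcgr1 (ENSMUSG00000015947), the high-affinity receptor CD64, had 1.67, 1.23 and 1.59 CPM against 2.55, 4.72 and 3.96 CPM, also apart (1.33 ± 0.27, adjusted p = 0.00562, offset value 1.17).

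Fcgr2b (ENSMUSG00000026656) encodes the receptor that restrains activation through an inhibitory tail. It was measured at 49.5, 48.8 and 45.3 CPM in controls against 49.5, 42.4 and 37.01 CPM. The groups overlapped because Pkd1 KO kidney 1 lay just above the highest control (−0.16 ± 0.15, adjusted p = 0.402, offset value −0.27). On the per-kilobase scale the control means were 8.27 CPM per kb for Fcgr2b and 2.41 for Fcgr3. The Pkd1 KO means were 7.42 and 10.5, so the order of these 2 means differed between the groups. Pkd1 KO kidney 1 alone kept the order of the controls. It had 49.5 CPM of Fcgr2b and 12.3 of Fcgr3, over exonic lengths of 5790 and 1736 bases. Fcgr2b, Fcgr3 and Fcgr4 share stretches of sequence, which makes their separate counts uncertain. Fcgr2b is also used by B cells and some endothelial cells. Summed CPM of 5 endothelial markers was 289 to 336 in controls and 249 to 252 in Pkd1 KO kidneys, and that of 6 B or plasma cell markers 13.4 to 16.01 and 26.9 to 99.4, and their part in the Fcgr2b value was not tested.

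Both inhibitory receptor genes rose. Lair1 (ENSMUSG00000055541), a collagen receptor that dampens immune cells, had 2.098, 1.38 and 1.88 CPM in controls and 6.29, 10.9 and 7.12 CPM in Pkd1 KO kidneys, apart by a wide margin (2.18 ± 0.27, adjusted p = 0.00234, offset value 2.07). Lilrb4a (ENSMUSG00000112148), a receptor with inhibitory tail motifs, stood at 1.09, 1.61 and 1.73 CPM against 2.65, 3.099 and 4.04 CPM. It rose by 1.15 ± 0.26 (adjusted p = 0.00829), with an offset value of 0.67 that was not called. Lilrb4a has a near-identical neighbour, Lilrb4b, and its count is uncertain to that extent.

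The phagocyte oxidase joins the membrane subunits encoded by Cybb (gp91phox, the catalytic chain) and Cyba (p22phox) to cytosolic subunits, among them those encoded by Ncf1 (p47phox) and Ncf4 (p40phox). Of these 4 genes 3 rose, with a median log2 fold change of 0.92. Cybb (ENSMUSG00000015340) had 12.8, 8.84 and 10.5 CPM in controls and 16.98, 23.9 and 19.998 CPM in Pkd1 KO kidneys, without overlap (0.93 ± 0.19, adjusted p = 0.00568, offset value 0.57). Ncf4 (ENSMUSG00000071715) was lower in level, with 0.855, 0.795 and 0.696 CPM against 1.42, 2.39 and 2.07 CPM, and rose by 1.32 ± 0.28 (adjusted p = 0.00575, offset value 1.29). Ncf1 (ENSMUSG00000015950) is the organiser that brings the cytosolic subunits to the membrane. It had 2.18, 1.16 and 1.68 CPM in controls and 1.19, 2.51 and 1.89 CPM in Pkd1 KO kidneys, which overlapped (0.16 ± 0.34, adjusted p = 0.706), and its value turned to −0.081 without control 2 and −0.11 without KO 2.

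Cyba (ENSMUSG00000006519) stood apart from its partners in level. It had 475, 333 and 687 CPM in controls and 947, 944 and 925 CPM in Pkd1 KO kidneys, and per exonic kilobase its mean was 479.7 CPM against 903, while Cybb had 1.84 against 3.49. The protein also pairs with NOX4, an oxidase of kidney tubule cells, and the part of tubule cells in the Cyba value was not tested. The 3 Pkd1 KO kidneys were nearly equal (coefficient of variation 1.29%) and the controls spread widely (35.7%). The log2 fold change was 0.91 ± 0.24 (adjusted p = 0.0154, offset value 0.76), and the call ended without control 1 (adjusted p = 0.0636) and without KO 2 (0.0554), within a range of 0.000427 to 0.0636. Cyba supplied most of the members' summed CPM. Without it the sums were 229.7, 167 and 215 CPM in controls and 384, 607 and 513 CPM in Pkd1 KO kidneys.

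Of 3 scavenger receptor genes 2 rose, 1 of them by a call that depended on single libraries. Msr1 (ENSMUSG00000025044), the class A receptor for modified lipoproteins, had 0.3302, 0.415 and 0.494 CPM in controls and 1.72, 3.35 and 2.32 CPM in Pkd1 KO kidneys, so that all Pkd1 KO kidneys lay above the controls (2.58 ± 0.33, adjusted p = 0.00234, offset value 1.93). Mrc1 (ENSMUSG00000026712), the mannose receptor CD206, had 4.82, 3.41 and 3.32 CPM against 4.18, 8.81 and 6.99 CPM. Its groups overlapped, since Pkd1 KO kidney 1 lay below control 1. Mrc1 was called (0.79 ± 0.29, adjusted p = 0.0473), but not without control 1 (adjusted p = 0.0568), control 2 (0.0836), control 3 (0.102), KO 2 (0.194) or KO 3 (0.116), so that 1 scavenger receptor was then called higher in place of 2. Its adjusted p ranged from 0.00868 to 0.194 over its alternatives. Cd163 (ENSMUSG00000008845), the receptor for haptoglobin-haemoglobin complexes, was low, at 0.524, 0.795 and 0.606 CPM in controls and 0.526, 0.722 and 0.7103 CPM in Pkd1 KO kidneys. It was not called (0.02 ± 0.31, adjusted p = 0.956), and its sign changed between alternatives.

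All 4 C-type lectin genes rose, with a median log2 fold change of 2.32. Clec7a (ENSMUSG00000079293), the β-glucan receptor Dectin-1, had 2.21, 1.63 and 2.45 CPM in controls and 10.7, 18.6 and 17.1 CPM in Pkd1 KO kidneys. No control came near the lowest Pkd1 KO kidney, and the Pkd1 KO mean was 7.39 times theirs (2.89 ± 0.26, adjusted p = 0.00167, offset value 2.06). Clec4n (ENSMUSG00000023349), Dectin-2, which binds fungal mannans, was near the counting floor in controls, with 1 to 14 reads, against 47 to 136 in Pkd1 KO kidneys. Its CPM was 0.272, 0.0173 and 0.202 in controls and 0.9501, 2.23 and 1.55 in Pkd1 KO kidneys (log2 fold change 3.29 ± 0.63, adjusted p = 0.00446, offset value 2.52). Cd209a (ENSMUSG00000031494), a DC-SIGN homologue of dendritic cells and monocyte-derived cells, stood at 1.77, 1.04 and 2.45 CPM against 5.397, 7.67 and 4.48 CPM (1.75 ± 0.33, adjusted p = 0.00429, offset value 0.98). It belongs to a family of close copies, so its count is uncertain. Clec10a, a galactose-type lectin, rose by 1.49 ± 0.41 (adjusted p = 0.0171, offset value 1.33), a call that ended without control 1 (adjusted p = 0.0569) and without KO 2 (0.0735), within a range of 9.91e-05 to 0.0735.

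Of the 2 genes of lipid-associated macrophages, Trem2 rose and Gpnmb was not called. Trem2 (ENSMUSG00000023992), a receptor for lipids and apoptotic cells that signals through the Tyrobp adaptor, had 2 to 10 reads in controls and 36 to 80 in Pkd1 KO kidneys. This was 0.136, 0.173 and 0.0449 CPM in controls and 0.728, 1.31 and 1.17 CPM in Pkd1 KO kidneys, with no overlap (3.12 ± 0.47, adjusted p = 0.00266, offset value 3.36). Gpnmb (ENSMUSG00000029816), a glycoprotein of lysosome-rich macrophages, had 0.388, 0.346 and 0.1795 CPM against 0.344, 0.705 and 0.647 CPM. Its groups overlapped (0.88 ± 0.43, adjusted p = 0.119), and only the offset value of 1.21 was called among its 14 alternatives (adjusted p = 0.0486, range up to 0.328).

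Among resident-type genes 1 of 3 tested rose, and all 4 were scarce in whole kidney. Pf4 (ENSMUSG00000029373), a chemokine known from platelets that some tissue macrophages also express, had 0.427, 0.415 and 0.8302 CPM in controls and 1.37, 2.51 and 2.57 CPM in Pkd1 KO kidneys, apart (1.96 ± 0.37, adjusted p = 0.004305, offset value 1.24). Of 7 platelet or megakaryocyte markers 2 were abundant enough to test and 0 were called (1 higher with the offsets), their summed CPM was 7.77 to 9.36 in controls and 6.81 to 9.74 in Pkd1 KO kidneys, and Gp1bb was at 0 in every library. Folr2 (ENSMUSG00000032725), a folate receptor of resident macrophages, stood at 0.311, 0.484 and 0.696 CPM against 0.627, 0.525 and 0.631 CPM. The values overlapped (0.26 ± 0.37, adjusted p = 0.573), and the sign turned with the offsets (−0.17). Lyve1, a hyaluronan receptor shared by perivascular macrophages and lymphatic vessels, had a log2 fold change of 0.66 ± 0.56 (adjusted p = 0.356) and 9 to 27 reads in controls. The 6 lymphatic markers gave 32.2 to 42.3 summed CPM in controls and 29.9 to 39.3 in Pkd1 KO kidneys, with 1 called higher (2 without control 3) and 3 lower (1 with the offsets), and their part in the Lyve1 value was not tested.

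**Figure D3:**
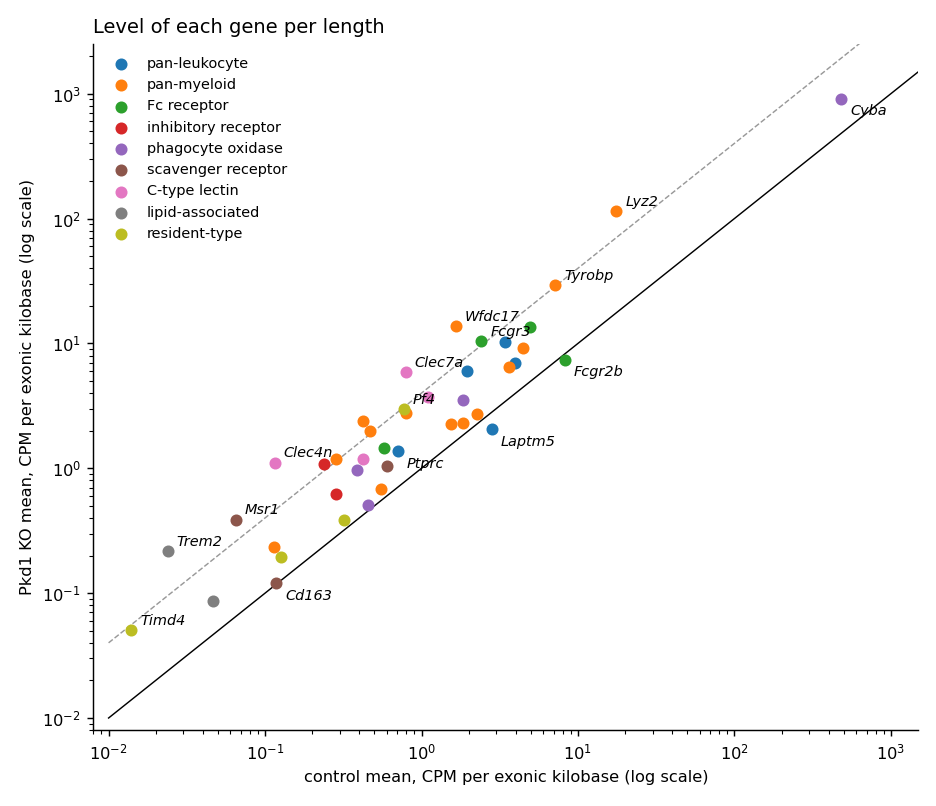
Mean level of each of the 42 genes in Pkd1 KO kidneys (y axis) against control kidneys (x axis), both in CPM per exonic kilobase on log scales, means of 3 kidneys. The solid line marks equal levels and the dashed line a 4-fold higher level in Pkd1 KO kidneys. Lyz2, Wfdc17, Clec7a, Clec4n, Msr1 and Trem2 are among the genes above the dashed line, and Fcgr2b and Laptm5 lie below the solid line.

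Each myeloid gene was also expressed as a percentage of the summed CPM of the 5 pan-leukocyte genes in the same kidney. That sum was 48.2, 34.5 and 43.3 CPM in controls and 59.6, 86.0 and 78.4 CPM in Pkd1 KO kidneys, higher in all 3 of these. Of the 37 other members, 19 had a higher percentage in every Pkd1 KO kidney than in every control, 4 had a lower one and 14 overlapped. Over all tested genes 5.10% were higher and 54.6% lower on the same scale. No test was made on these percentages, which share their denominator. Lyz2 was 54.8%, 36.8% and 69.8% of the sum in controls and 164%, 219% and 210.1% in Pkd1 KO kidneys, and Clec7a 4.597%, 4.72% and 5.64% in controls against 17.9%, 21.7% and 21.9%. Both thus had percentages in the Pkd1 KO kidneys that were clear of the controls. Cybb, at 26.5%, 25.6% and 24.1% in controls and 28.5%, 27.8% and 25.5% in Pkd1 KO kidneys, overlapped, and so did Spi1, at 8.63%, 10.9% and 10.3% against 10.01%, 7.51% and 7.65%. The 4 that were lower were Cd68, Fcgr2b, Ncf1 and Cd163. For Cd68 the percentages were 7.54%, 7.48% and 5.39% in controls and 5.12%, 4.88% and 3.83% in Pkd1 KO kidneys.

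The Pkd1 KO kidneys kept a common order over these genes. Kidney 1 was the lowest of the 3 in 35 of the 41 tested members and kidney 2 the highest in 33, whereas over all tested genes they held these places in 35.8% and 35.3%. Among controls, sample 2 was the lowest in 24 members and the highest in 2, against 40.1% and 39.6% of all genes, and sample 1 was the highest in 21, against 20.8%. Members share the cells they come from, so these counts describe the kidneys and are not independent repeats. The summed CPM of 8 T or NK cell markers had the same order, at 7.64, 12.1 and 8.78 in Pkd1 KO kidneys 1, 2 and 3, and that of 6 B or plasma cell markers did not, at 99.4, 53.2 and 26.9. Their part in the order of the myeloid genes was not tested. With all 6 libraries and without any 1 of them, 26 of the 30 genes called higher were called, and no called member moved by over 1.5 times when 1 library was left out.

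Other cell types were read from their own marker lists, beside 22.7% of all tested genes called higher and 24.2% called lower. Of 6 macrophage markers, which include the members Adgre1, Cd68 and Fcgr1, 2 were higher (Fcgr1 and C1qa) and 2 lower. The lower ones were Csf1r, the receptor for macrophage colony-stimulating factor (mean ± SD 51.5 ± 9.99 and 25.6 ± 0.0581 CPM, log2 fold change −1.01 ± 0.17, adjusted p = 0.00297, offset value −0.34), and Mertk, an efferocytosis receptor (−0.38 ± 0.13, adjusted p = 0.0406). Mertk lost its call without control 1 (adjusted p = 0.0818), KO 1 (0.142), KO 2 (0.0597) or KO 3 (0.170), within a range of 0.0147 to 0.2001. Higher macrophage markers numbered 1 with the offsets and without KO 1, KO 2 or KO 3, and lower ones 1 without those or control 1. The summed CPM of the 6 was 127 to 148 in controls and 102 to 123 in Pkd1 KO kidneys. Defining macrophage markers thus went in both directions, unlike most of the 42 genes. Their summed level was lower in every Pkd1 KO kidney than in every control, but it mainly reflects Csf1r and Mertk. Mertk had a control mean of 60.8 CPM, and the next after these was C1qa with 15.7 CPM. The other markers had positive log2 fold changes, 0.63 for C1qa, 1.33 for Fcgr1, 0.33 for Adgre1 and 0.26 for Cd68. The last 2 were not called, and the offset value of Cd68 was negative (−0.22). Neutrophil markers were near 0, with 3 of 10 tested and 2 called higher (1 if control 2, KO 1 or KO 2 was left out, and 0 with the offsets, with the stricter filter, without control 1 and without KO 3), 1.204 to 1.503 summed CPM in controls and 1.42 to 2.79 in Pkd1 KO kidneys, and Ly6g and Mpo at 0 in every library. T or NK cell markers were higher in 4 of 8 cases and lower in 0, and B or plasma cell markers in 3 of 6 and 0. Dendritic cell markers were higher in 2 of 6 (0 without KO 2 or with the stricter filter, 1 without control 1, control 2 or KO 3), at 12.8 to 14.7 summed CPM in controls and 14.5 to 17.3 in Pkd1 KO kidneys. The part of these cells in the pan-leukocyte, Fc receptor and lectin values was not tested.

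Other genes of the same pathways were counted from lists that hold no member. Of all tested genes 22.7% were called higher and 24.2% lower. Counts of a list near these shares say nothing particular of its genes. Of 10 tested genes around the oxidases 3 rose and 1 fell. The small GTPase gene Rap1a rose by 0.82 ± 0.18 with an offset value of −0.08, and the mitochondrial superoxide dismutase gene Sod2 fell by 0.61 ± 0.14 on the log2 scale (adjusted p = 0.00895), which was not called without KO 2 (adjusted p = 0.0548, the highest of its alternatives). The list held 0 decreases without KO 2 and 3 without control 3.

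Of 19 tested Fc receptors and genes of ITAM or ITIM signalling, 7 rose and 2 fell, beside 22.7% and 24.2% of all genes. Fcgr4, an activating receptor for immunoglobulin G, rose by 1.52 ± 0.38 (adjusted p = 0.0115, offset value 0.87), a call that ended without KO 2 (adjusted p = 0.0554, in a range up to 0.0739). Pirb, an inhibitory receptor for class I molecules, rose by 1.18 ± 0.25 (adjusted p = 0.006501, offset value 1.14), and the phospholipase gene Plcg2 went from 17.5 ± 6.33 to 6.11 ± 0.399 CPM, here and for the genes that follow the mean ± SD (−1.52 ± 0.26, adjusted p = 0.00313, offset value −1.07). The increases numbered 3 without KO 2 and 4 without KO 3.

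Of 16 tested transcription factor genes of myeloid cells 3 rose and 3 fell, beside 22.7% and 24.2% of all genes. Among those that fell were Cebpa (−1.44 ± 0.25, adjusted p = 0.003298, offset value −0.82) and Cebpb (−1.20 ± 0.30, adjusted p = 0.0119, offset value −0.81 with adjusted p = 0.0582, not called). Cebpb lost its call without KO 2 (adjusted p = 0.0540, in a range up to 0.0582) and stood at −0.80 without control 1. Both are also used outside myeloid cells. The 3 that rose were Tfec (0.96 ± 0.31, adjusted p = 0.0308, offset value 0.45), Fli1 (0.54 ± 0.18, adjusted p = 0.0386, offset value 0.06) and Ikzf1 (0.46 ± 0.17, adjusted p = 0.0497, offset value 0.47). With the offsets Tfec (adjusted p = 0.193) and Fli1 (adjusted p = 0.792) were not called. Fli1 and Ikzf1 lost their calls without any 1 of the 6 libraries, at adjusted p-values of 0.0511 to 0.180 and 0.0559 to 0.196, and the Fli1 value was 0.34 without KO 3. Tfec lost its call without control 1 (0.0824), KO 1 (0.0849), KO 2 (0.0980) or KO 3 (0.0597) and stood at 0.62 without control 2. Increases therefore numbered 1 without control 1 or KO 1 and 0 without KO 2 or KO 3, and decreases 5 without control 3 and 2 without KO 2.

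Of 17 other tested scavenger receptors and lectins, 10 rose and 3 fell, beside 22.7% and 24.2% of all genes. Clec4a3 (2.11 ± 0.30, adjusted p = 0.00259, offset value 1.16) and Clec12a (2.07 ± 0.23, adjusted p = 0.00224, offset value 1.57), both lectin-like receptors of myeloid cells, had the largest increases among genes with a mean log2 CPM of 0 or more. Stab2, an endothelial scavenger receptor, fell (−1.31 ± 0.40, adjusted p = 0.0256, offset value −0.54, not called), but not without control 1 (adjusted p = 0.0896), KO 1 (0.0809), KO 2 (0.0715) or KO 3 (0.0768), in a range up to 0.232. With the offsets 6 rose and 0 fell, and the decreases numbered 1 without control 1 or KO 3 and 0 without KO 1.

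Genes reported in kidney resident macrophages gave 6 increases and 5 decreases among 16, beside 22.7% and 24.2% of all genes. The complement gene C1qb rose from 16.6 ± 4.38 to 33.2 ± 5.79 CPM (1.00 ± 0.22, adjusted p = 0.00763, offset value 0.74) and Gas6, a ligand of efferocytosis receptors, went from 417 ± 61.9 to 161 ± 11.4 CPM (−1.37 ± 0.16, adjusted p = 0.00234, offset value −1.17). Decreases numbered 2 without control 1, KO 1, KO 2 or KO 3, and increases 2 without KO 2.

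Of 17 monocyte genes 7 rose and 2 fell, beside 22.7% and 24.2% of all genes. Plac8 went from 10.2 ± 2.58 to 45.4 ± 13.3 CPM (2.16 ± 0.26, adjusted p = 0.00234, offset value 1.54), and Emilin2, a matrix protein gene, fell (−1.95 ± 0.47, adjusted p = 0.009797, offset value −1.15). Without KO 2 the increases numbered 3. Of 16 genes of lipid-associated macrophages 8 rose and 2 fell. They included the elastase gene Mmp12 (2.10 ± 0.27, adjusted p = 0.00234, offset value 1.72), the fatty acid carrier gene Fabp4 (1.49 ± 0.26, adjusted p = 0.003298, offset value 1.04) and, among the decreases, the aminopeptidase gene Anpep (−1.10 ± 0.20, adjusted p = 0.00389, offset value −0.79), which the proximal tubule also expresses. Increases of that list numbered 5 with the offsets and without control 1, KO 2 or KO 3, and decreases 1 without control 1, KO 1, KO 2 or KO 3. Of 4 adipocyte markers 3 were tested and 1 was called higher (0 with the offsets). Their summed CPM was 1.30 to 5.83 in controls and 3.23 to 21.3 in Pkd1 KO kidneys. The part of adipocytes in the Fabp4 value was not tested.

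**Figure D4:**
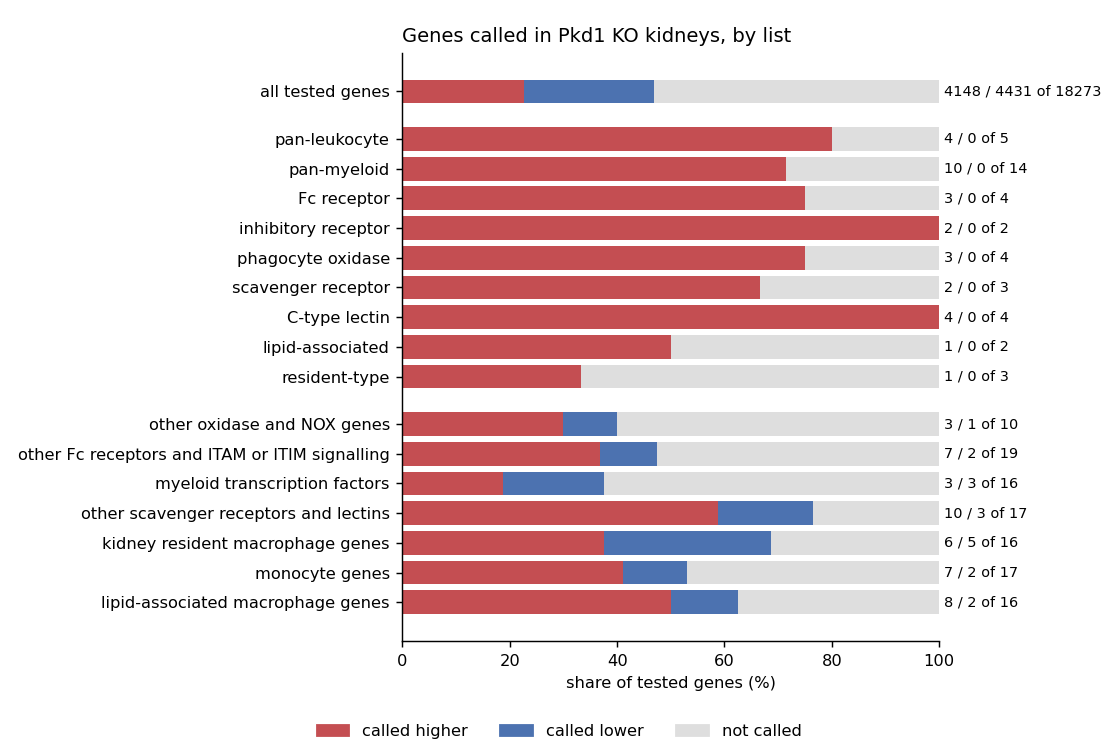
Share of tested genes (x axis, percent) called higher (red), called lower (blue) and not called (grey) in all tested genes, in the 9 subgroups of myeloid genes and in 7 lists of other pathway genes, with counts of higher and lower of those tested at the right. No subgroup of the 42 genes has a blue part, while all genes have 22.7% higher and 24.2% lower.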

How the data were processed

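Whole-kidney RNA was profiled in 6 samples, 3 control and 3 Pkd1 KO, grouped by their titles. Per the labels' protocols, poly-A RNA was purified and complementary DNA made with random primers, and RNA quality was read by Nanodrop only. The authors deposited 7 tables of STAR gene counts, not normalized. Cutadapt 4.0, FastQC 0.11.8, STAR 2.6.1e and build GRCm39 stand in the submitters' processing notes. Which gene annotation was counted is not stated there. The column that ignores strand was used, so overlapping genes on opposite strands cannot be separated. Lines that name no gene held 22.7% to 26.3% of reads and were left out. The 2 runs of control 1 were summed as 1 replicate. Symbols, exonic lengths and GC content came from GENCODE M21, an older build, joined by gene identifier (52073 of 56923 matched), and no coordinates from it are printed. Promoter sequences and their coordinates are RefSeq's, build GRCm38.p6, and 31 of the 42 members had one.

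Pkd1 KO was compared with control by edgeR's quasi-likelihood test (edgeR 4.0.16, R 4.3.3) with filterByExpr and TMM scaling, and p-values were adjusted by Benjamini-Hochberg over all 18273 genes at 0.05. Standard errors were derived from the fold change and its F statistic. CPM was scaled by TMM library sizes. The offset fit entered a loess surface (span 0.3) of each library's log2 CPM deviations on GC content and log2 exonic length, for 17785 genes (97.3%). It also removes any real change that follows these properties. On simulated counts for this comparison (17513 genes), each fold size had 50 changed genes. The test found 2 of those changed 1.5-fold, 37 of those changed 2-fold, 49 of those changed 3-fold and all 50 changed 4-fold. Unchanged genes made up 5 of its 143 calls. The simulation gave all genes 1 common spread and changed few of them, all above 1 CPM in controls. It held no project effect, so these rates are not those of the real calls or of scarcer genes. Alternatives were size factors of the RLE type, upper-quartile scaling, DESeq2 1.42.0, 2 other filters, the deeper run of control 1, the offsets, a replicate block and each library left out.

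The members, subgroups and lists were chosen with earlier results of these data known. Values in every sample were given, per subgroup, for the called members that differed most, at most 3, and for the uncalled member with the highest level (by CPM and, for the pan-myeloid genes, also per length). Of the other pathway lists, the rule took called genes whose log2 CPM averaged 0 or more, up to 2 that went with most calls and 1 that went against them. Fewer are named for some lists, and a few list genes are left unreported. That narrowing, and the choice of Tyrobp, Csf1r, Mertk and the other transcription factor genes, followed after values were seen.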

Additional observations from a re-analysis of the deposited data

How the results depend on the processing

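Of the 41 tested members, 23 were called in every one of 15 alternatives that gave a value. The number called higher was 26 to 31 over the alternatives, 26 to 30 with 1 library left out. Members called lower numbered 0 to 1 with 1 library left out, the 1 being Laptm5. Genes called over the whole table numbered 5071 to 10318 with 1 library left out (lowest without KO 2, highest without control 3) and 5471 with the replicate block and the GC and length offsets together, against 8579.

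With the GC and length offsets the sign turned for Laptm5 (0.0049), Cd68 (−0.22), Folr2 (−0.17) and Rap1a (−0.083), and with the replicate block and offsets together for the same 4 genes (0.014, −0.20, −0.14 and −0.078). Fcgr2b turned to 0.0064 with upper-quartile scaling. Cd163 turned to −0.0085 in DESeq2 and −0.00087 with the deeper run of control 1, and ranged from −0.14 to 0.18 with 1 library left out. Ncf1 ranged from −0.11 to 0.40 and Folr2 from −0.0099 to 0.52 with 1 library left out. None of these members was called with all 6 libraries, the cause was not tested, and Rap1a was the only called gene among them. Mrc1 lost its call with RLE size factors (adjusted p = 0.0533) and with the deeper run of control 1 (0.0595), in a range of 0.00868 to 0.194. With the stricter filter 28 members were called higher. Members that it removed gave no value.

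The labels do not say whether kidneys with the same sample number were matched. Correlations of deviations between same-numbered kidneys were 0.038, −0.084 and −0.029. With 3 libraries per group, centred on the group mean, such values can neither show nor exclude a pairing. With the number as a replicate block, 7397 genes and 28 members were called, the calls of Spi1 (adjusted p = 0.0598) and Mrc1 (0.1004) ended, and no other member changed its call. The replicate block with offsets called 26 members and ended the calls of Mrc1 (0.185), Cd53 (0.0512), Cd14 (0.0641) and Lilrb4a (0.0649). Depth limits Msr1, Clec4n, Trem2, Gpnmb, Lyve1 and Timd4, which had under 30 reads in every control.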
